A study of Zea mays with 56 samples.

Results

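The 200 megabase bins of the maize genome with the fewest distinct Mu insertion sites held 29889 of the 2142767 sites counted, or 1.39% of the sites in 9.45% of the bins. Chromosomes 1 to 10 were cut into 2117 full bins of 1 Mb by the first border position of each site, the last partial bin of a chromosome was left out, and the 200 bins with the fewest distinct sites were taken, with ties broken by chromosome number and then by position. A site counted when it had at least 1 count in any of the 46 undiluted libraries of Mu-active plants. The number of sites per bin chose the bins, so the counts per bin, and the recurrence of sites, are given as a description with no test. Positions are in the build of the deposited tables, which is not given in the sources used here, and no gene context or sequence was assigned to the bins.

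Mu elements are DNA transposons of maize that insert at new places both in somatic cells and in the germ line. They are known to insert mostly near the 5′ ends of genes and in open chromatin. The middle parts of maize chromosomes, around the centromeres, are known to be poor in genes and rich in repeats and to recombine little.

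The libraries were made with MuSeq2, a PCR on sheared, adapter-ligated DNA that reads genomic sequence next to Mu ends. Mu-active plants were W22 with a Mu-active father and a Mu-inactive mother. There were 17 such plants, of which 42 and 52 carry the prefix ND67 in their names and the others ND58, and ND67 plants gave endosperm and pollen only. Endosperm came as a chip of the kernel (15 plants), and the same kernel's plant was later sampled for V2 leaf (6 plants), primary root (6 plants) or pollen (14 plants). Endosperms 61 and 74 carry B73 MuKiller beside W22 MuActive in their genotype label. These endosperm libraries entered the choice of bins and were left out of the tests between tissues. Root 61 and the root, leaf and pollen of plant 74 do not carry MuKiller in their labels, and they stayed in the tests. Leaf of 3 plants of the Mu-inactive W22 parent was the background of the method and had no part in choosing the bins. Leaf DNA of plants 79 and 83 was also diluted with DNA of the third Mu-inactive leaf. A Qiagen kit was used for leaf and root, and CTAB for endosperm and pollen. Extraction method and tissue cannot be told apart in any comparison across these pairs.

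Total counts per library were 45730 to 3222143 in endosperm, 606090 to 1881017 in leaf, 604168 to 3650060 in root, 7119 to 745604 in pollen and 1646591 to 2511743 in Mu-inactive leaf. PCR counts are not independent molecules, so the intervals given here cover counting error only. For 3 libraries the title and the description name different plants (a technical library of leaf 75 and the pollen of plants 69 and 99), and the plant in the library name was used.

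The poorest bins held a median of 156.5 sites (8 to 230), against 901 sites (231 to 5436) in the other 1917 bins, a ratio of medians of 5.76. Just inside the limit lay chromosome 3, 98 to 99 Mb, with 228 sites and chromosome 10, 36 to 37 Mb, with 230. Just outside it lay chromosome 5, 104 to 105 Mb, and chromosome 5, 132 to 133 Mb, with 231 sites each. The limit therefore cuts a continuous range of values. Only 13 bins held under 50 sites, and 37 held 100 or fewer.

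The bin with the fewest sites was chromosome 6, 11000001 to 12000000, with 8. The next were chromosome 2, 95 to 96 Mb, with 29 sites, chromosome 4, 8 to 9 Mb, with 32, and chromosome 9, 54 to 55 Mb, with 40. Chromosome 3, 92 to 93 Mb, and chromosome 7, 88 to 89 Mb, held 42 sites each. These 6 bins lie on 6 chromosomes, and 2 of them, on chromosomes 4 and 6, lie near a chromosome end. The 10 poorest were completed by chromosome 5, 107 to 108 Mb, and chromosome 10, 44 to 45 Mb, with 43 sites each, and by chromosome 1, 135 to 136 Mb, and chromosome 3, 88 to 89 Mb, with 46 each.

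Every chromosome held poorest bins, with 20, 27, 27, 21, 11, 19, 21, 20, 22 and 12 of them on chromosomes 1 to 10 in that order. This was 4.95% of the bins of chromosome 5 at the low end and 13.5% of those of chromosome 9 at the high end. Of the 200 bins, 184 lay between 20% and 80% of the highest position on their chromosome, where 1271 of all 2117 bins lie. Between 30% and 60% lay 146 of the 200, against 641 of all bins. The median position was 38.1% (quartiles 30.9% and 45.0%), so most of the poorest bins lay in the inner part of a chromosome and before its midpoint.

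**Figure D1:**
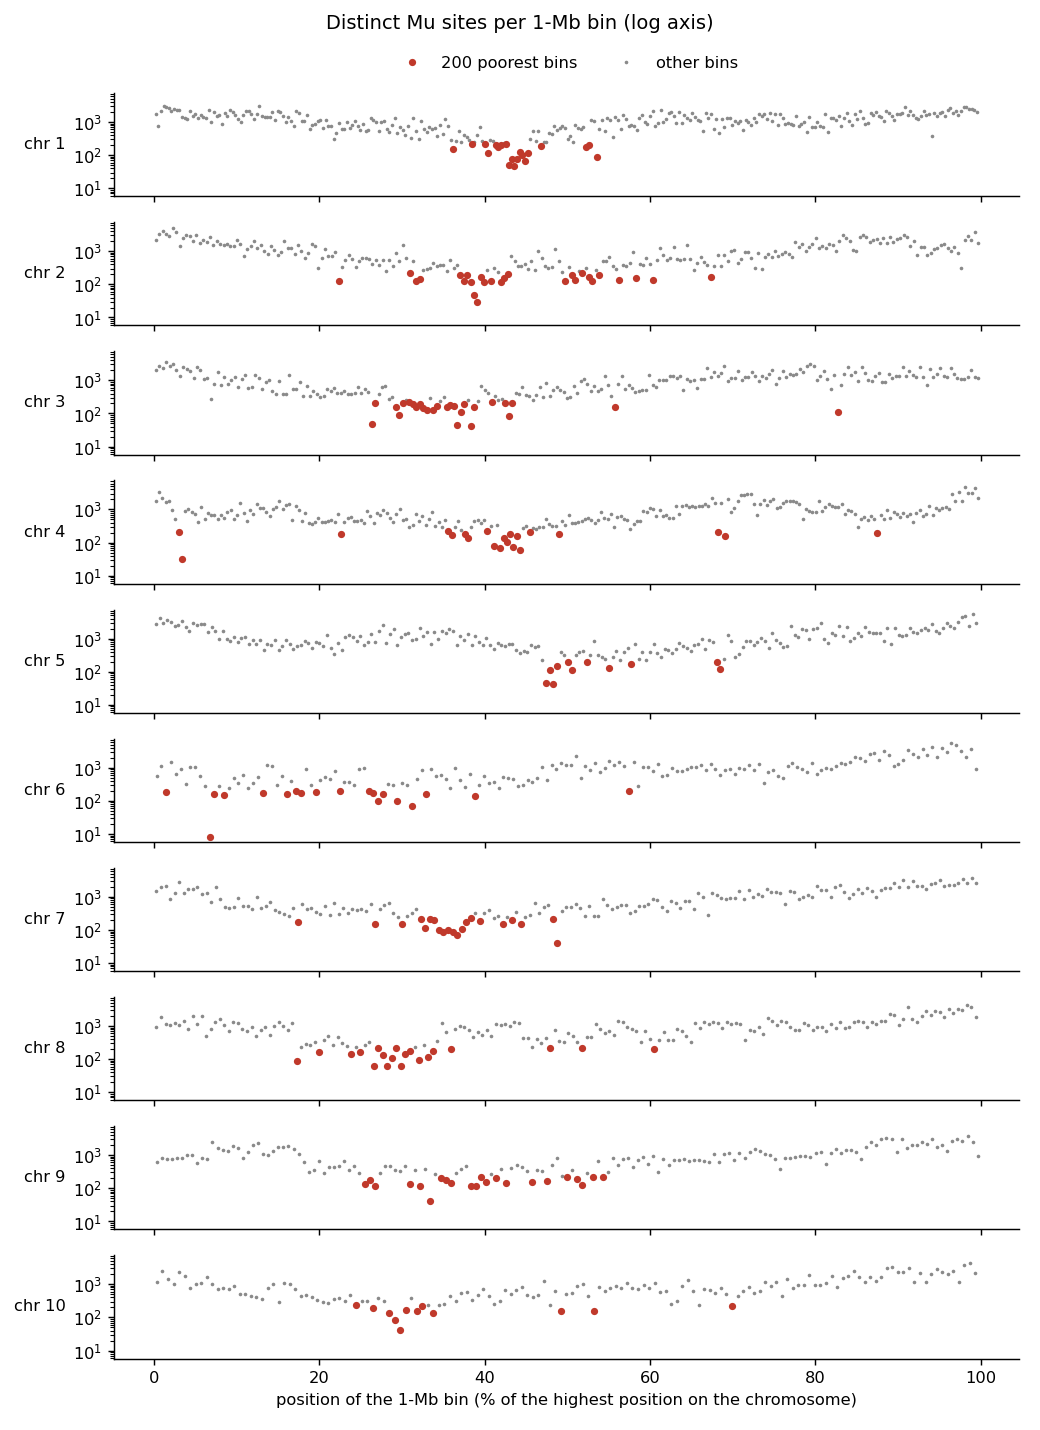
Distinct Mu sites per 1-Mb bin (log axis) against the position of the bin in % of the highest position on its chromosome, with the 200 poorest bins as large red points and the other 1917 bins as small grey points. On each of the 10 chromosomes the counts sink toward an inner stretch, and the poorest bins there are mixed with other bins.

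Only 6 of the 200 bins lay in the outer 10% of a chromosome, where 418 of all bins lie. They were 7 to 8 and 8 to 9 Mb on chromosome 4 and 2 to 3, 11 to 12, 12 to 13 and 14 to 15 Mb on chromosome 6. All 6 were near the low end of the coordinates, and none was on another chromosome.

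The poorest bins did not form 1 block per chromosome. They fell into 107 runs of adjacent bins, of which 71 were single bins, and each chromosome held 6 to 15 runs. The 36 runs of at least 2 bins held 129 of the 200 bins, and the 11 runs of at least 4 bins held 73. When runs no more than 5 Mb apart were joined, 37 blocks were left, and still no chromosome had a single block.

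The longest run was 12 bins on chromosome 7, 58 to 70 Mb, which held 1704 sites with 71 to 224 per bin. Runs of 9 bins lay on chromosome 1, 132 to 141 Mb (883 sites), and on chromosome 8, 48 to 57 Mb (1189 sites). Chromosome 2 had a run of 8 bins at 90 to 98 Mb (980 sites) and chromosome 4 a run of 7 bins at 106 to 113 Mb (785 sites). Each of these 5 chromosomes thus had 1 long inner run, with shorter runs apart from it. Chromosome 3 had a pair of equal longest runs of 6 bins, at 74 to 80 Mb (1028 sites) and 85 to 91 Mb (848 sites). On chromosomes 5, 6, 9 and 10 no run passed 4 bins. Those runs lay at 105 to 109 Mb (352 sites), 44 to 48 Mb (625 sites), 62 to 66 Mb (600 sites) and 42 to 46 Mb (435 sites) in the order of the chromosomes.

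Site number increased with distance from the poorest bins. The 183 bins adjacent to a poorest bin had a median of 364 sites, and bins 2 away had 495. The median was 532 at 3 to 5 bins, 607 at 6 to 10, 820 at 11 to 20, 1153 at 21 to 40, and 1586.5 at over 40 bins. The poorest bins thus mostly sat in wider stretches of low site number.

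Some edges were sharp, and those named here were picked after their values were seen. Chromosome 6, 11 to 12 Mb, with 8 sites, adjoined a bin of 284 sites at 10 to 11 Mb, a ratio of 35.5. Chromosome 4, 8 to 9 Mb, with 32 sites, adjoined a bin of 903 at 9 to 10 Mb, a ratio of 28.2. Chromosome 8, 31 to 32 Mb, held 86 sites beside 1232 at 30 to 31 Mb, and chromosome 4, 175 to 176 Mb, held 157 beside 2074 at 176 to 177 Mb. Among the 71 bins with no poorest neighbour, the fewest sites were in chromosome 9, 54 to 55 Mb (40 sites), chromosome 6, 53 to 54 Mb (68 sites), and chromosome 4, 104 to 105 Mb (78 sites).

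Inside the poorest bins the sites were few and unevenly placed, and uneven placement was also seen in the other bins. Occupied windows, empty windows and site-free stretches depend on the number of sites, which chose the bins. These values are therefore given as a description with no test. A site was found in 8179 of the 200000 windows of 1 kb (4.09%), against 11.4% of such windows in the other bins. Each occupied window held 3.65 sites on average in the poorest bins, against 9.70 in the other bins. The poorest bins therefore had fewer occupied windows and fewer sites in each. Of the 2000 windows of 100 kb in the poorest bins, 200 (10%) held no site, against 488 of 19170 (2.55%) in the other bins. The longest stretch without a site had a median of 140716 bp per poorest bin (59098 to 540345 bp), and the longest of all was in chromosome 6, 11 to 12 Mb.

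The fullest 10-kb window of a poorest bin held a median of 29.6% of the bin's sites (12.2% to 89.0%), against a median of 17.6% in the other bins. This share tends to be larger where a bin holds few sites, so the contrast is partly fixed by the choice of bins. In 24 poorest bins a single 10-kb window held more than 50% of the sites. In chromosome 3, 87 to 88 Mb, 146 of 164 sites lay at 87750001 to 87760000. In chromosome 8, 43 to 44 Mb, 107 of 147 sites lay at 43560001 to 43570000, and in chromosome 6, 33 to 34 Mb, 135 of 187 lay at 33450001 to 33460000. These 3 bins, named after their values were seen, held most of their sites in 1 short stretch, and each held sites from all 17 plants.

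**Figure D2:**
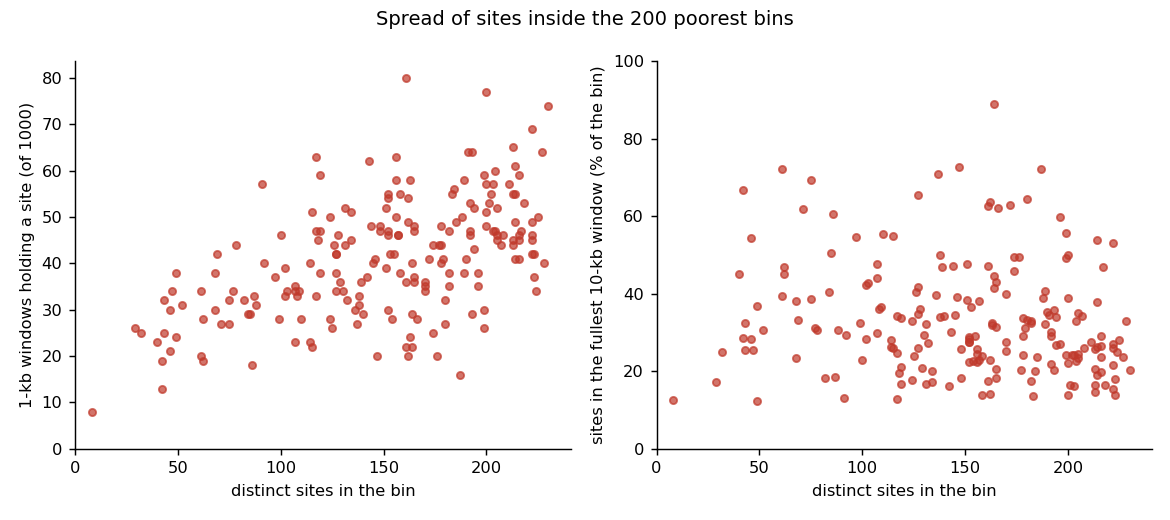
Each point is 1 of the 200 poorest bins, with its number of distinct sites on both horizontal axes. The left panel gives the number of 1-kb windows (of 1000) that held a site, 8 to 80, and the right panel the percent of the bin's sites in its fullest 10-kb window, 12.2% to 89.0%.

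The emptiest bin differed from these. The 8 sites of chromosome 6, 11 to 12 Mb, lay in 8 different 1-kb windows and came from 5 plants. Each was read in 1 library only, 7 with 1 count and 1 with 2 counts, and none at both borders. Endosperm gave 6 of them, root 1, pollen 1 and leaf 0, and no Mu-inactive library had a site in the bin.

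Most sites in the poorest bins were seen in 1 plant. Of the 29889, 25157 (84.2%) were detected in a single plant, against 75.5% of the sites in the other bins. At least 2 plants shared 4732 (15.8%, against 24.5%), at least 5 plants 726 (2.43%, against 4.69%) and at least 10 plants 129 (0.432%, against 1.02%). Recurrent sites were thus scarcer in the poorest bins at each of these limits. Of the sites detected in 1 plant, 1.55% lay in the poorest bins, as did 0.999% of those detected in 2 plants, 0.598% of those in 10 plants and 0.677% of those in all 17.

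The evidence behind single sites was thin. In the poorest bins 17980 sites (60.2%) rested on 1 count in 1 library, against 52.1% in the other bins. A library read 4505 of them (15.1%) at both borders of the insertion, against 18.9% in the other bins. At least 10 counts in some library were reached by 796 (2.66%), against 3.96%. Sites of 1 count inside the poorest bins were therefore common in every tissue, with means of 68.4% ± 8.29 of the sites inside in endosperm (SD, n = 15), 74.5% ± 9.58 in leaf (n = 6), 72.2% ± 10.0 in root (n = 6) and 64.0% ± 14.7 in pollen (n = 14). The same libraries had 65.3% ± 10.3, 70.4% ± 10.3, 63.8% ± 8.13 and 61.7% ± 14.7 outside the poorest bins in the same order of tissues.

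All 4 tissues contributed to the poorest bins. Endosperm libraries had 16581 of the sites there (55.5%, against 59.4% in the other bins), leaf 11629 (38.9%, against 40.3%), root 1510 (5.05%, against 5.59%) and pollen 4719 (15.8%, against 20.5%). A site can count in several tissues, and these shares follow the number and depth of the libraries. A single kind of tissue held 26386 of the sites (88.3%, against 81.1%), and 144 sites were seen in all 4 kinds. The median poorest bin held 85 endosperm sites, 58 leaf, 7 root and 24 pollen sites.

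The bins were spread over plants too. Sites from all 17 plants were present in 168 of the 200 bins. One bin lacked a leaf site and 3 lacked a root site, and none lacked an endosperm or a pollen site. Bins chosen from a single tissue overlapped the 200 by 187 for endosperm, 175 for leaf, 160 for root and 173 for pollen, each of 200. Between 2 tissues that share no library, 153 to 170 of 200 bins were the same. This shows how far the choice repeats in separate libraries, from plants that the tissues share only in part.

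Sites that were private to a plant yet found in at least 2 of its tissues were rare in the poorest bins. There were 84 of them over the 17 plants, from 0 in plants 65 and 105 to 15 in plant 79. Their share of the plant's private sites was lower inside than outside the poorest bins in 16 of 17 plants, from 0% inside against 0.0720% outside in plant 105 to 0.566% inside against 0.829% outside in plant 79. Plant 85 had the opposite order, with 0.317% inside and 0.287% outside. The sites inside were few in each plant, and the order was not tested.

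For the share of a plant's sites in the poorest bins, each plant was measured on the 200 bins chosen from the other 16 plants, which shared 196 to 200 bins with the full choice. A share below the 9.45% of bins is therefore fixed by the choice, and only the differences between tissues were tested. Technical libraries of a plant were averaged. In leaf the share was 1.24% ± 0.0383 (SD, n = 6), with plants at 1.20% to 1.29%. In endosperm it was 1.16% ± 0.109 (n = 15, 1.04% to 1.39%) and in root 1.18% ± 0.182 (n = 6, 0.884% to 1.33%). In pollen it was 0.995% ± 0.0813 (n = 14, 0.905% to 1.18%).

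All 6 leaf values lay above every pollen value, and 4 of 15 endosperm and 4 of 6 root values did. The difference was 0.249 percentage points for leaf minus pollen (two-sided exact permutation test, adjusted p = 0.000300 over 6 tissue pairs). It was 0.164 points for endosperm minus pollen (permutation test with 100000 permutations, adjusted p = 0.000300) and 0.182 points for root minus pollen (exact permutation test, adjusted p = 0.0215). Endosperm minus leaf (-0.0847 points, adjusted permutation p = 0.133), endosperm minus root (-0.0178 points, adjusted permutation p = 0.778) and leaf minus root (0.0669 points, adjusted exact permutation p = 0.538) did not pass the test. With the plant as a block, leaf minus pollen was 0.256 points over 6 plants (adjusted exact sign-flip permutation p = 0.0938) and root minus pollen 0.292 points over 3 plants (adjusted exact sign-flip permutation p = 0.375), and before adjustment both are at the smallest p that so few plants allow, so the test could not pass. In the 13 endosperms and 12 pollens of ND58 plants, endosperm minus pollen was 0.167 points (adjusted permutation p = 0.000840). Over sites of at least 2 counts, endosperm minus pollen was 0.120 points (adjusted permutation p = 0.0616), leaf minus pollen 0.175 points (adjusted exact permutation p = 0.0630) and root minus pollen -0.0509 points, so none of the 3 differences from pollen passed the test without the sites of 1 count.

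**Figure D3:**
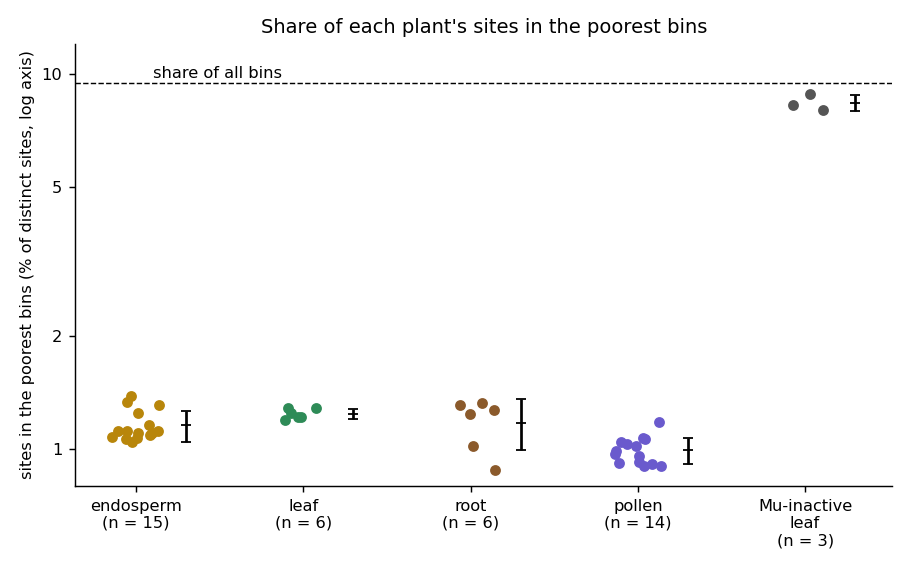
Percent of each plant's distinct sites that lie in the poorest bins (log axis), 1 point a plant, with mean and SD beside each group and a dashed line at the 9.45% of all bins. Mu-active tissues sit between 0.884% and 1.39%, and the 3 Mu-inactive leaves between 8.01% and 8.83%.

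Leaf of Mu-active plants had a share of 1.24% ± 0.0383 (SD, n = 6), against 8.36% ± 0.423 (n = 3) in leaf of Mu-inactive plants. The Mu-inactive leaves had 8.01%, 8.83% and 8.24%, somewhat below the 9.45% of bins, and no value of the groups overlapped. The difference was -7.12 percentage points, or 6.72 times the share in Mu-inactive leaf over Mu-active leaf, given as a description with no test. The bins were chosen from Mu-active plants, so a low share in Mu-active leaf is part of the choice, also with the measured plant held out.

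The few sites of the Mu-inactive leaves were somewhat scarcer in the poorest bins than in the others on average, and more of the poorest bins had none. Of 11928 such sites in full bins, 1007 (8.44%) lay in the poorest ones. The poorest bins held a mean of 5.04 (0 to 29) and the other bins of 5.70, with a median of 5 in both. None was found in 17 poorest bins (8.5%), against 65 of the other bins (3.39%). Across all 2117 bins the Spearman correlation of sites in Mu-active and Mu-inactive libraries was 0.0994, and across the 200 poorest bins 0.00565. Of the sites inside the poorest bins, 87.5% to 93.1% per Mu-inactive library had 1 count, and only 2 in each library were read at both borders. Of the 29889 Mu-active sites in the poorest bins, 9 (0.0301%) were also read in a Mu-inactive library, against 358 (0.0169%) in the other bins.

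The share of sites in the poorest bins also varied with the count of the site. Sites of 1 count had a mean share of 1.23% ± 0.191 in endosperm, 1.32% ± 0.0676 in leaf, 1.33% ± 0.242 in root and 1.04% ± 0.10 in pollen (SD over 15, 6, 6 and 14 plants). Sites of at least 10 counts had 1.11% ± 0.359 in endosperm, 0.902% ± 0.161 in leaf, 0.940% ± 0.258 in root and 1.06% ± 0.458 in pollen. By these means, the gap between 1 count and at least 10 counts was larger than the SDs between plants in leaf and root. It was within those SDs in endosperm and pollen. The means give full weight to libraries with few sites of at least 10 counts inside, such as pollen 75 with 3 and endosperm 105 with 2. With sites summed over libraries, the share was lower at 10 or more counts in every Mu-active tissue. It went from 1.22% to 0.970% in endosperm, 1.31% to 0.862% in leaf, 1.38% to 0.935% in root and 1.05% to 0.876% in pollen. The change with count was not tested. In Mu-inactive leaf the shares were 8.60% ± 0.655 at 1 count and 5.17% ± 1.27 at 10 or more (n = 3). The second value rests on 9 of 175 sites, summed over the libraries, so a site can count in several of them. The number of method-background sites among the single counts of Mu-active libraries was not tested.

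**Figure D4:**
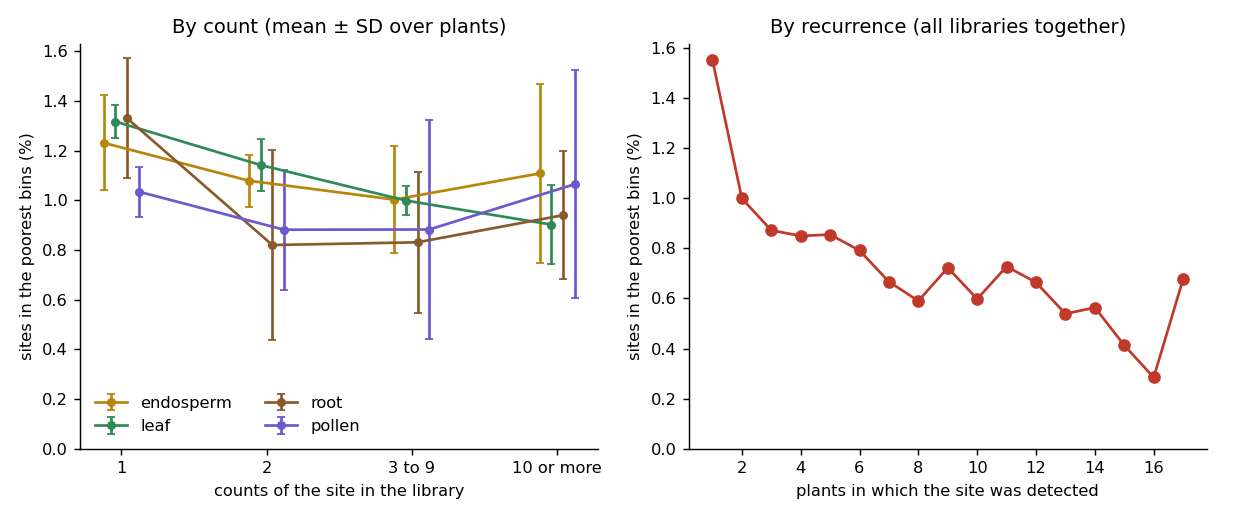
The left panel gives the percent of sites in the poorest bins by the count of the site in its library (mean and SD over plants, 4 Mu-active tissues). The right panel gives it by the number of plants in which the site was detected, all libraries together, with 1.55% at 1 plant and 0.284% at 16 plants.

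Leaf DNA of plants 79 and 83 was also sequenced after dilution with DNA of Mu-inactive leaf 3, so those libraries hold sites of both. Their shares of sites in the poorest bins were all lower than that of the undiluted library of the same plant, by small amounts. Plant 79 had 1.25% undiluted (95% Wilson interval 1.20% to 1.30%), 1.15% at 1 part in 3 (1.10% to 1.21%), 1.15% at 1 in 10 (1.01% to 1.30%) and 1.20% at 1 in 30 (1.07% to 1.36%). Plant 83 had 1.29% undiluted (1.244% to 1.339%), and 1.17% (1.101% to 1.238%), 1.17% (1.05% to 1.29%) and 1.22% (1.04% to 1.44%) at the same dilutions. In plant 83 the interval at 1 part in 3 did not overlap the undiluted one, whereas the other diluted intervals overlapped theirs. Among sites of a diluted library that the undiluted library did not hold, the share was not lower. It was 1.25%, 1.36% and 1.56% in plant 79 and 1.31%, 1.36% and 1.40% in plant 83, at 1 part in 3, 10 and 30. Each dilution was made in 2 plants only, and no test was made.

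The abundance of sites, which the choice of bins did not use, was compared within libraries. Relative abundance was the count of a site divided by the median count of 28 sites read with at least 10 counts in all 50 undiluted libraries, and only sites of 1 plant were taken. In root the mean log2 relative abundance of sites was lower inside than outside the poorest bins in 6 of 6 plants, with differences of -0.324 to -0.148 and a mean difference of -0.23 ± 0.08 (SD, n = 6). In leaf it was also lower in 6 of 6 plants, by a mean of -0.05 ± 0.02. Both had an exact sign-flip permutation p of 0.03125, the smallest that 6 plants allow, and an adjusted p of 0.0625 over 4 tissues, so neither passed the test. In pollen 12 of 14 plants were lower, with a mean of -0.04 ± 0.07 (adjusted permutation p = 0.0738), and in endosperm 7 of 15, with -0.031 ± 0.086 (adjusted permutation p = 0.198), or -0.015 over 14 plants without endosperm 52 (adjusted permutation p = 0.394). Only 41 to 375 such sites per root library lay inside the poorest bins.

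The share of well-covered sites read at both borders was compared in the same way, over sites of at least 10 counts. In leaf it was 97.8% ± 1.21 inside the poorest bins and 92.0% ± 0.622 outside (SD, n = 6), higher inside in 6 of 6 plants by up to 7.24 points. The mean difference of 5.81 ± 0.876 points had an adjusted exact sign-flip permutation p of 0.125 over 4 tissues and did not pass. Endosperm had a mean difference of 2.20 ± 5.18 points (n = 14, adjusted permutation p = 0.275), root of -5.73 ± 13.6 points (n = 5, adjusted exact permutation p = 0.583) and pollen of 0.662 ± 4.78 points (n = 9, adjusted exact permutation p = 0.680). Libraries with fewer than 5 such sites inside gave no value, which is why n differs. Leaf libraries had 10 to 44 such sites inside. At 5 or more counts the mean leaf difference was 0.666 points.

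**Figure D5:**
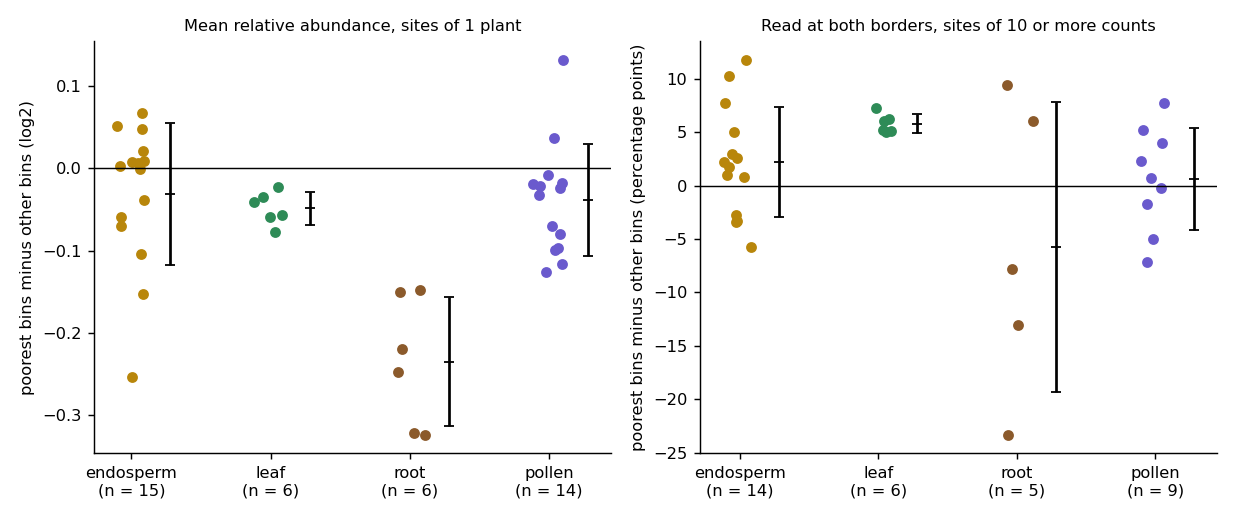
Poorest bins minus other bins, 1 point a plant, with mean and SD. The left panel gives the difference in mean log2 relative abundance over sites of 1 plant, which lies below 0 in all 6 roots and all 6 leaves. The right panel gives the difference in the percent of sites of 10 or more counts read at both borders, which lies above 0 in all 6 leaves.

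Few sites of the poorest bins were abundant, and whether abundant sites were scarcer there than elsewhere was not tested. At a relative abundance of at least 0.1, each endosperm library held 1 or 2 sites inside the poorest bins and 62 to 132 outside. The 132 were in endosperm 61, which carries the MuKiller label, and the highest number without that label was 106. The poorest bins held 1.39% of all sites, so few abundant sites would lie there at that share too. A site counted as inherited at a relative abundance of at least 0.1 in endosperm and in an embryo-derived library. By this rule 2 of the 29889 sites of the poorest bins were inherited, against 487 of 2112878 in the other bins. One of them was private to plant 69, at chromosome 6, 27131548 to 27131556. Its relative abundance was 0.756 in endosperm (95% interval 0.741 to 0.771), 0.571 in root (0.560 to 0.581) and 0.528 in pollen (0.491 to 0.566). The deposited combined count of this site is 2 times its larger border and not the sum of both, as in endosperm, where 668 counts at one border and 4876 at the other gave 9752. With the sum of the borders the values were 0.430 in endosperm, 0.348 in root and 0.350 in pollen.

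The other abundant private sites were each in 1 library. In pollen 42 a site at chromosome 3, 90197473 to 90197481, had 1390 counts and a relative abundance of 0.341 (0.323 to 0.359). It was not read in endosperm 42, the only other library of that plant. In endosperm 85 a site at chromosome 8, 110586606 to 110586614, had 0.0289 (0.0260 to 0.0321). In root 69 a site at chromosome 9, 81302058 to 81302066, had 0.0168 (0.0151 to 0.0186). In leaf 79 the sites at chromosome 2, 123154996 to 123155004, and chromosome 9, 86443843 to 86443851, had 0.00939 (0.00799 to 0.0110) and 0.00916 (0.00777 to 0.0107). The highest private site of the poorest bins was thus under 0.01 in leaf.

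Of the sites in all 17 plants, 9 lay in the poorest bins. The 2 with the most counts had borders far apart, whereas 29886 of the 29889 sites spanned 9 bp, the length of the duplication that Mu makes at its target. The site at chromosome 2, 142959280 to 142961386, spanned 2107 bp, was read in all 46 Mu-active libraries and had 440612 counts in Mu-inactive leaf. Its relative abundance in Mu-active plants reached 1.96 in endosperm 65, where the combined count of 28956 is again 2 times the larger border, and 1.24 with the sum of the borders. It is the other site that met the rule for inherited sites. The site at chromosome 2, 78235838 to 78240609, spanned 4772 bp, and 40 of the 46 Mu-active libraries and Mu-inactive leaf (8195 counts) read it. The next were at chromosome 9, 86550147 to 86550155 (34 libraries, 139 counts), chromosome 2, 90459962 to 90459970 (26 libraries, 104 counts), and chromosome 10, 48996470 to 48996478 (26 libraries, 90 counts). These 3 had 0 counts in Mu-inactive leaf, and the highest relative abundance of any was 0.00461.

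These long sites set how much of a library lay in the poorest bins. The poorest bins took 1.72% ± 0.647 of the counts in endosperm (SD, n = 15), 1.59% ± 0.446 in leaf (n = 6), 1.75% ± 0.698 in root (n = 6), 1.45% ± 0.420 in pollen (n = 14) and 5.47% ± 0.525 in Mu-inactive leaf (n = 3). Without the sites of long span the shares were 0.263% ± 0.174 in endosperm, 0.271% ± 0.0491 in leaf, 0.173% ± 0.294 in root, 0.344% ± 0.143 in pollen and 0.0169% ± 0.0105 in Mu-inactive leaf. Root 69, which holds the private site on chromosome 6, had 0.770%, and the other 5 roots had a mean of 0.0531% ± 0.0269. These shares use the deposited combined counts, which are 2 times the larger border at some sites. With the sum of the borders they were 1.44% in endosperm, 1.34% in leaf, 1.41% in root, 1.37% in pollen and 4.74% in Mu-inactive leaf. Without the long sites those means were 0.272%, 0.302%, 0.144% (highest root 0.557%), 0.364% and 0.0205% in the same order. By counts, then, Mu-inactive leaf had the highest mean share with the long sites and the lowest without them, by either count.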

How the data were processed

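MuSeq2 libraries of W22 maize were analysed from 3 deposited tables of whole-number counts per insertion site, 1 for both borders together and 1 for each border, with 56 library columns each. Bowtie2 is named in the submitters' processing notes, without a version. The build, the way sites were called and filtered, and whether copies of 1 molecule were merged were each not given in the sources used here. At 163 sites the combined count deposited by the authors is 2 times the larger border, and otherwise the sum. A fixed 1-Mb grid was used, with a minimum of 1 count and no depth correction, so shares of sites depend on depth and on single counts. Samples were grouped by their labels, plants were the replicates, and samples of the same plant share its number, which made the plant a block in an alternative. Differences of means were tested with two-sided permutation or sign-flip tests, exact where a group (or the set of pairs) had fewer than 10 plants and otherwise with 100000 resamples, adjusted by Benjamini-Hochberg within each family, with 0.05 as the threshold. The scripts were tested on simulated data. Regions and sites named are the 10 poorest bins, the longest run per chromosome, the 2 bins on either side of the limit, the 3 poorest single bins, and per tissue the 2 most abundant sites of 1 plant among those read at both borders with at least 10 counts, plus the 5 sites in the most plants. The bins, lists and tests were chosen with earlier results of these data known. Alternatives left out single counts, sites without both borders, tissues or shallow libraries, changed the number of bins or the grid, or thinned the libraries. Python 3.11.15, numpy 2.4.6, pandas 2.3.3, scipy 1.17.1 and matplotlib 3.10.9 were used.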

Additional observations from a re-analysis of the deposited data

Results flagged for a closer look

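The difference in abundance between sites inside and outside the poorest bins differed between tissues in 3 of 6 pairs. Each value is a difference of mean log2 differences, with permutation p adjusted over the 6 pairs. Leaf minus root was 0.186237 (adjusted exact permutation p = 0.00433), with root at -0.23 ± 0.08 and leaf at -0.05 ± 0.02 (SD, n = 6 each). Endosperm minus root was 0.204083 (adjusted exact permutation p = 0.00166), with endosperm at -0.03 ± 0.09 (n = 15). Root minus pollen was -0.196342 (adjusted exact permutation p = 0.000310), with pollen at -0.04 ± 0.07 (n = 14). Over sites of at least 2 counts root had -0.15 (5 plants) and leaf -0.08 (6 plants), and the difference between tissues was not tested there. Among the 7 groups of 4 to 10 plants tested for the share of sites, the abundance difference or the border difference, no plant stood apart from the others of its group.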

How the results depend on the processing

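The poorest bins stayed in many runs under each of 10 alternatives, with 102 to 112 runs, a longest run of 9 to 13 bins and no chromosome with a single run, and 179 to 200 bins were shared with the 200 in 9 of them. Tissue differences in the share of sites, in percentage points, depended on single counts. Over sites of at least 2 counts, endosperm minus root was 0.171, endosperm minus pollen 0.120, leaf minus pollen 0.175 and root minus pollen -0.0509. Over sites read at both borders, endosperm minus leaf was 0.0429, endosperm minus root 0.154 (adjusted permutation p = 0.0104), endosperm minus pollen 0.0816, leaf minus pollen 0.0387 and root minus pollen -0.0723. Over sites of at least 10 counts, an alternative chosen after seeing the data, endosperm minus leaf was 0.206, endosperm minus root 0.168, endosperm minus pollen 0.0434, leaf minus root -0.0378, leaf minus pollen -0.163 and root minus pollen -0.125, none past the test. Leaf minus root was -0.0189 with 100 bins, -0.0944 over sites of 1 plant that were not inherited and -0.0133 over sites of 1 count. Endosperm minus leaf was -0.118 with shifted bins (adjusted permutation p = 0.0434). Thinning the libraries of each tissue pair to the lowest reference level among them gave endosperm minus root of 0.0648, and it gave root minus pollen of 0.160 (adjusted permutation p = 0.0829). With the replicate block, leaf minus pollen was 0.256 and root minus pollen 0.292, where 6 and 3 plants were too few for the test to pass, and endosperm minus pollen still passed at 0.165. Mu-active minus Mu-inactive leaf was -7.29 to -6.88 when 1 Mu-inactive plant was left out. For abundance (log2), pollen was 0.0570 over sites of at least 2 counts and 0.0306 over sites read at both borders, and endosperm 0.0088 over the second. With 100 bins, endosperm was -0.0575, leaf -0.0678 and root -0.236, and over sites in any number of plants -0.0569, -0.0873 and -0.147 in the same order, all past the test. For border reading, leaf was 0.666 points at 5 or more counts (adjusted exact sign-flip permutation p = 0.792), against 5.81 at 10 or more. In the other alternatives leaf was 3.86 to 8.16 points. Root was 1.05 points at 5 or more counts and 0.957 over sites of 1 plant, and pollen was -2.13 at 20 or more counts and -1.69 over sites of 1 plant. The cause of these changes was not tested. With ND58 plants only, chosen after seeing the data, no tissue difference in the share changed its side of the test. Pollen had the lowest reference levels (69 to 7022).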
